A study of Mus musculus with 6 samples.

Results

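The acute phase and STAT3 response was followed here through 10 genes in testis of TAp73 knockout (KO) mice. The genes were Lrg1, Lcn2, Hp, Cp and Saa3, which encode secreted acute phase products, Il6st, Osmr and Lifr, which encode cytokine receptor subunits, Stat3, which encodes the transcription factor, and Socs3, which encodes its feedback inhibitor. They were chosen by symbol, as Lrg1 with the acute phase and gp130 pathway genes beside it, from 19751 genes named on the array. The KO against wild type (WT) contrast was known when they were chosen, so their differences in that contrast are described. Where a call from the fit across all probes is given for them, it is a description and no test. All 10 had at least 1 probe, 13 probes in all, and all 13 passed the filter on dim probes.

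Whole testis was taken from 3 TAp73 KO and 3 WT male C57BL/6J mice, all 10 weeks old, and RNA of each mouse was hybridised to 1 Agilent 1-colour array. TAp73 is the set of Trp73 products with an intact transactivation domain, and p73 belongs to the p53 family. The labels name the KO allele only as TAp73 KO and no Cre or other agent in either group. The sources used here do not give how the allele was made or whether the KO mice were littermates of the WT mice.

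Cytokines of the interleukin-6 family act through receptors that contain gp130, the product of Il6st. Ligand binding activates Janus kinases, which phosphorylate STAT3, and STAT3 then enters the nucleus and switches on target genes, among them Socs3, whose product shuts the receptor down again. In liver this pathway, together with NF-kB and C/EBP factors, drives the acute phase response, in which plasma proteins such as haptoglobin and serum amyloid A rise during inflammation. In testis, leukaemia inhibitory factor and related cytokines act on germ cells and on the somatic cells around them, and rat Sertoli cells secrete some of the same plasma proteins, ceruloplasmin included. In whole testis, fewer cells of a type and less RNA per cell cannot be told apart.

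The start of a gene is where such factors can bind, and 3 promoters are shown because Lrg1 had the lowest KO signal relative to WT of the 10 genes, Osmr had the next lowest among those well above background on every array, and Socs3 is the textbook STAT3 target. Sequences are those of RefSeq on GRCm38.p6, 5′ to 3′ on the strand of the gene, 300 bases each from 250 bases before to 50 bases after the start. The Lrg1 window is chr17:56121897-56122196 on the minus strand, that of Osmr is chr15:6874264-6874563 on the minus strand, and that of Socs3 is chr11:117969317-117969616 on the minus strand. Capitals mark matches on either strand to the STAT motif TTCNNNGAA or to the NF-kB motif, which is GGG, any 5 bases and CC.
Lrg1: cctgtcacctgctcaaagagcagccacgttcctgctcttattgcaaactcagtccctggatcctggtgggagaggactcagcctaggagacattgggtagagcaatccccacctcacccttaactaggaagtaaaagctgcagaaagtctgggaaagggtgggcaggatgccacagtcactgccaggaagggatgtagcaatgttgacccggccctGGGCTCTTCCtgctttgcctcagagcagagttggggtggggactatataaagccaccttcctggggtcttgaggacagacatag
Osmr: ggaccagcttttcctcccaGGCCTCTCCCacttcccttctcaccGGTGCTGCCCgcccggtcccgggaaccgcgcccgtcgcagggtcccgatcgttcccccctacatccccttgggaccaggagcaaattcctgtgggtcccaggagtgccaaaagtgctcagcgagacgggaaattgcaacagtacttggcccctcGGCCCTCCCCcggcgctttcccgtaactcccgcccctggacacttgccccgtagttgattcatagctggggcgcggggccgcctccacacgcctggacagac
Socs3: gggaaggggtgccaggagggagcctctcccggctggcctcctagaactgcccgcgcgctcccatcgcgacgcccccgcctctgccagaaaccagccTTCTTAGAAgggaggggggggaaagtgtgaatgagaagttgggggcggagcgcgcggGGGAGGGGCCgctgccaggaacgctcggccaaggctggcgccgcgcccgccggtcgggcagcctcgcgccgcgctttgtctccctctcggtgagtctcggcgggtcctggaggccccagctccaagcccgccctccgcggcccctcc

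RefSeq windows were found for 9 of the 10 genes, and Hp had no entry. The 9 genes had 11 windows, since Cp and Lifr have 2 starts each. The STAT motif was present in 1 of the 11 windows, that of Socs3, as TTCTTAGAA at position -154 from the start, against 8.3% of 32851 promoters of the same length. The NF-kB motif was present in 8 of 11 windows, against 50.8% of all promoters. Lrg1 held 1 match, GGGCTCTTCC at -34, and Osmr held 3 matches, at -231, -206 and -52, all on the opposite strand. The C/EBP motif TTNNGNAAT was present in 1 of 11 windows, that of Stat3, against 11.5% of all promoters. The p53 family half-site was present in 0 of 11 windows, against 8.36% of all promoters. NF-kB matches overlapped in the second Lifr window, within and between strands, and a window counts once however many matches it holds. These matches are letters in a window and not evidence of binding.

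The arrays resembled each other closely, with correlations over probes of 0.9872 to 0.9958 within groups and 0.9836 to 0.9931 between them. KO replicate 1 stood apart from the other arrays on the first principal component, with a score of -66.2, against -4 and -4.9 for the other KO arrays and 21.7 to 30.8 for the WT arrays. The arrays lay on 2 slides, with KO replicates 1 and 2 and WT replicates 1 and 3 on slide 1 and KO replicate 3 and WT replicate 2 on slide 2. The authors' table of processed values carries the group labels the other way round. The scanner file of each KO array matched a table column labelled WT and that of each WT array one labelled KO. The correlations over probes were 0.831 to 0.986. Replicate numbers differed as well, and no array kept its number. The labels of the scanner files are used throughout, and under the other labels every difference below changes sign. Values are the processed signal of a probe, a linear intensity, scaled so that each array has the same 75th percentile, and signals of different probes are not on a common scale. Before scaling, that percentile was 0.26 log2 units higher in WT. Of 31800 tested probes, 842 (2.65%) were lower and 81 (0.255%) higher in KO testis at an adjusted p under 0.05 (limma, Benjamini-Hochberg over all tested probes, two-sided). Quantile normalization gave 871 lower and 221 higher, and scaling to the median gave 571 lower and 143 higher.

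Trp73 checked the labels of the scanner files. The probe A_52_P193555 had scaled signals of 16.5, 5.77 and 5.86 in KO testis, against 528, 524 and 537 in WT testis, a log2 difference of -6.01 (SE 0.41, adjusted p = 0.00368, limma). The signal was well above background on 1 of 3 KO arrays. The other probes of the gene were lower by smaller amounts, with differences of -3.21 (SE 0.15, adjusted p = 0.00212, limma) for A_55_P1988133 and -0.99 (SE 0.10, adjusted p = 0.0103, limma) for A_52_P410636. Which Trp73 transcripts each probe reads was not examined.

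Lrg1 encodes leucine-rich alpha-2-glycoprotein, a secreted protein that is made by liver and neutrophils and modifies TGF-beta signalling in endothelium. Its probe A_51_P346938 had scaled signals of 2378, 750 and 1765 in KO testis, against 12346, 12693 and 11445 in WT testis. The highest KO array stood at 0.208 of the lowest WT array, so the groups did not overlap. The log2 difference was -3.05 (SE 0.40), 8.29-fold lower in KO testis, from geometric means of 1465 in KO and 12150 in WT (n = 3 each). The KO mice differed among themselves much more than the WT mice, with a 3.17-fold range in KO and a 1.11-fold range in WT. The SD of the log2 signals was 0.86 in KO and 0.08 in WT.

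Of 16953 genes represented by 1 probe each, 8 had a difference at or below that of Lrg1, Lrg1 included, and the 5th to 95th percentile of all of them was -0.61 to 0.33. Within slide 1 the Lrg1 difference was -3.15 (2 mice a group) and within slide 2 it was -2.85 (1 mouse a group). Leaving out each mouse in turn gave -3.40 to -2.57, the smallest without KO replicate 2, the mouse with the lowest signal.

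**Figure D1:**
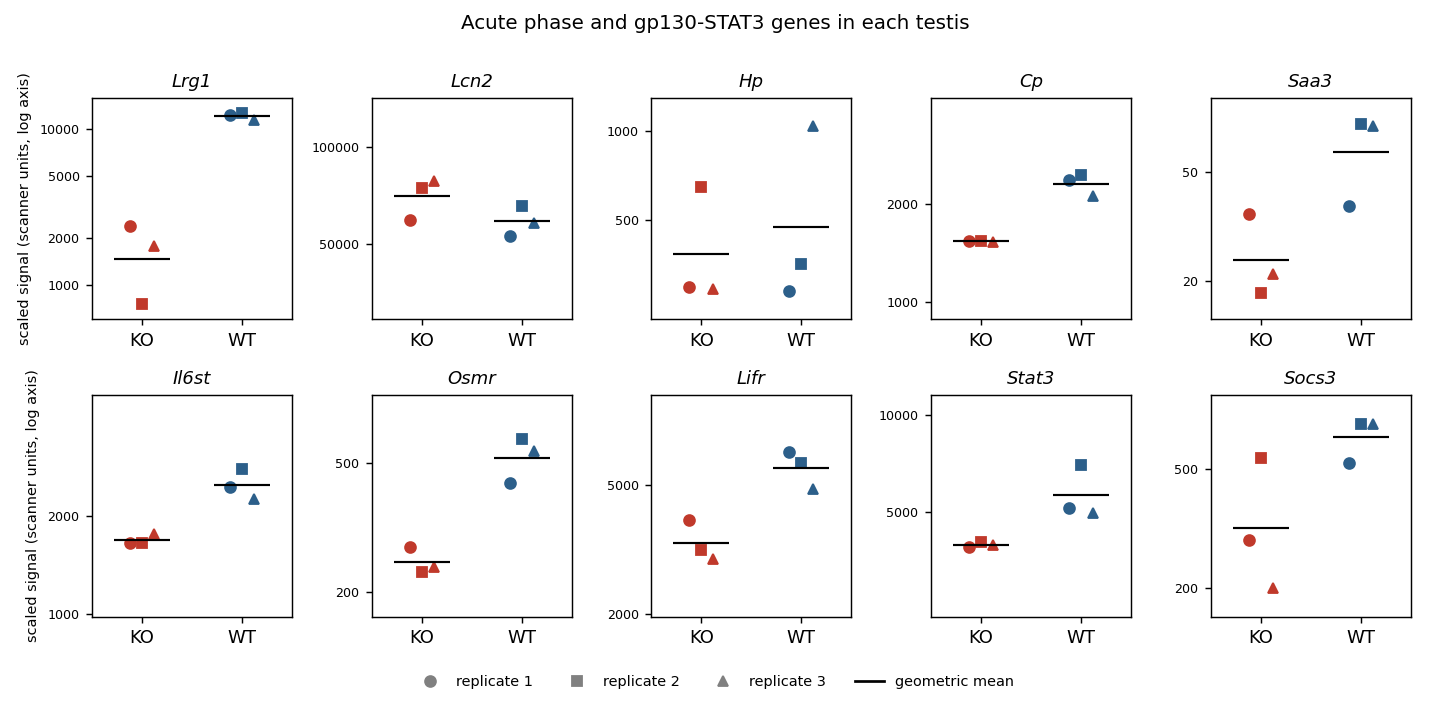
Scaled signal of the 10 genes on each array, 1 panel a gene, with KO points left of WT points and a log axis. Points are single mice (n = 3 each) and lines are geometric means, and the panels show Lrg1 with all 3 KO mice far below the WT mice, Cp, Il6st, Osmr, Lifr, Stat3 and Saa3 with separate groups, and Lcn2, Hp and Socs3 with overlapping ones.

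Of the 10 genes, 4 passed the threshold of the fit across all probes as lower in KO testis (Lrg1, Cp, Il6st and Osmr) and 0 as higher, against 3.55% of all 16953 genes lower and 0.224% higher. KO and WT arrays were fully separate for 7 of the 10 genes, all lower in KO testis, against 16.0% of all genes separate and lower and 19.2% separate and higher. The median difference of the 10 genes was -0.68, against 0.05 for all genes. Because this contrast chose the genes, nothing is read from these counts or from those of the other fits below. The 4 calls rested on the full set of mice. Without KO replicate 1 the genes that passed were Lrg1 and Osmr, without KO replicate 2 only Lrg1, without WT replicate 1 only Osmr and without WT replicate 3 only Cp. Without KO replicate 3 or WT replicate 2, 0 passed by limma, with 7 of 10 at an unadjusted p under 0.05 in either case. With the slide as a block, or with the replicate number as a block, 0 passed by limma and 8 had an unadjusted p under 0.05. With normexp background correction 0 passed by limma and 4 had an unadjusted p under 0.05. Among probes well above background on all 6 arrays, 5 genes passed, the same 4 and Lifr.

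**Figure D2:**
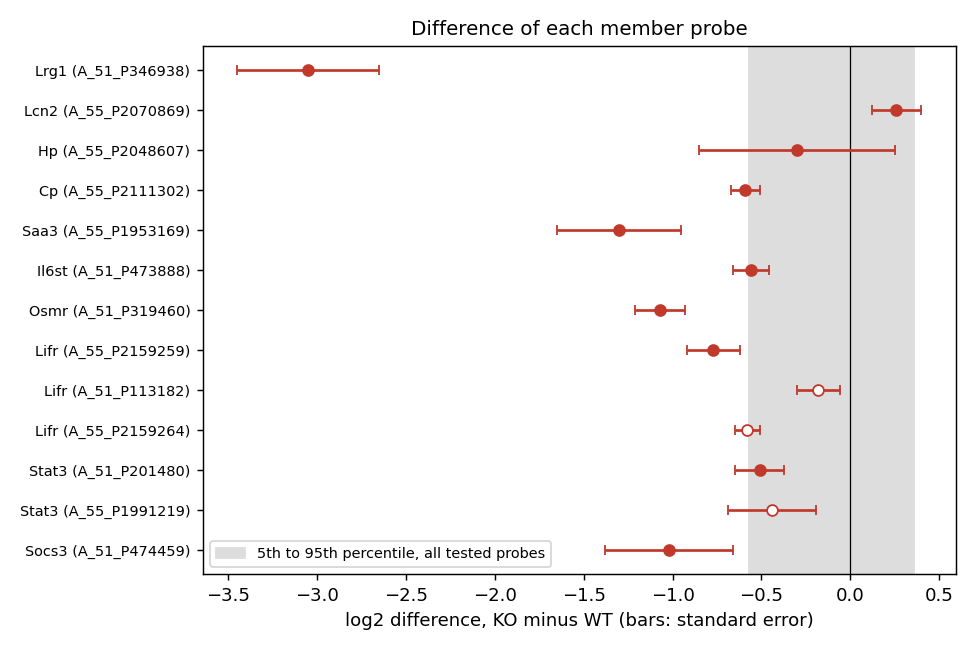
Log2 difference (KO minus WT) of the 13 probes of the 10 genes, with SE bars, on an axis in log2 units. Filled points are the brightest probe of each gene and open points its other probes. The grey band is the 5th to 95th percentile of all tested probes, -0.57 to 0.36, and Lrg1 at -3.05 lies farthest below it. Lcn2 was saturated on 2 of 3 KO and 3 of 3 WT arrays, so its point does not measure a difference.

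Among the other secreted products, Cp was lower in KO testis and the rest were less clear. Cp encodes ceruloplasmin, a copper-carrying ferroxidase that rat Sertoli cells secrete. Its scaled signals were 1538, 1547 and 1528 in KO testis, against 2376, 2469 and 2118 in WT testis. The KO mice were nearly identical (SD 0.01 on the log2 scale, against 0.11 in WT) and all lay below the WT mice, with a log2 difference of -0.59 (SE 0.08), 1.51-fold lower. Saa3 encodes serum amyloid A3, an acute phase apolipoprotein made mainly outside the liver. Its signals were 35.1, 18.2 and 21.2 in KO testis, against 37.5, 74.4 and 73.3 in WT testis, close to background. They were well above background on 1 of 3 KO arrays and 2 of 3 WT arrays. The KO values lay below the WT values, but KO replicate 1 and WT replicate 1 nearly met, and the difference of -1.30 (SE 0.35) became 0.47 with normexp background correction.

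Hp encodes haptoglobin, which binds free haemoglobin. It had scaled signals of 298, 650 and 293 in KO testis, against 289, 355 and 1041 in WT testis. The groups overlapped fully, 1 mouse in each group was high, and the difference of -0.30 had an SE of 0.55. It was 0.26 without WT replicate 3, the mouse with the highest signal. Lcn2 encodes lipocalin 2, which withholds iron by binding bacterial siderophores and is a marker of inflamed epithelium and neutrophils. Its scaled signals were 59358, 74844 and 78370 in KO testis, against 53102, 65872 and 58264 in WT testis. The probe was saturated on 2 of 3 KO arrays and 3 of 3 WT arrays, so no fold is given for Lcn2.

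By the brightest probe of each of the 3 receptor genes, Osmr and Il6st passed the threshold as lower in KO testis. That of Lifr had separate groups but did not pass, while another probe of Lifr did. Osmr encodes the oncostatin M receptor subunit that pairs with gp130. It had scaled signals of 275, 230 and 239 in KO testis, against 434, 594 and 544 in WT testis. All KO mice lay below all WT mice, and the log2 difference was -1.07 (SE 0.14), 2.1-fold lower. Lifr encodes the subunit that pairs with gp130 to receive leukaemia inhibitory factor. Its brightest probe, A_55_P2159259, had scaled signals of 3905, 3158 and 2956 in KO testis, against 6321, 5871 and 4880 in WT testis, with a difference of -0.77 (SE 0.15), 1.71-fold lower.

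The other probes of Lifr differed from it in size. A_55_P2159264 had 422, 423 and 450 in KO testis, against 674, 642 and 622 in WT testis, also without overlap (difference -0.58, SE 0.07). This probe passed the threshold as lower. A_51_P113182 had 588, 525 and 557 in KO testis, against 674, 689 and 541 in WT testis, and there the groups overlapped (difference -0.18, SE 0.12). The mean over the 3 probes was -0.51, so the place of Lifr beside Il6st depends on the probe. Il6st, the shared gp130 subunit, had scaled signals of 1661, 1659 and 1766 in KO testis, against 2466, 2809 and 2260 in WT testis. Its groups did not overlap and its difference was -0.56 (SE 0.10), 1.48-fold lower. Whether the 3 receptor genes differed from each other in the size of the change was not tested.

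Stat3 and its inhibitor showed a smaller and a more scattered difference. The brighter Stat3 probe, A_51_P201480, had scaled signals of 3912, 4030 and 3969 in KO testis, against 5133, 7005 and 4986 in WT testis. The KO mice agreed closely, all WT mice lay above them, and the difference was -0.51 (SE 0.14). It was -0.35 without WT replicate 2, the mouse with the highest signal. The dimmer probe, A_55_P1991219, had 143, 153 and 154 in KO testis, against 301, 191 and 146 in WT testis, and its groups overlapped (difference -0.44, SE 0.25). Socs3 had scaled signals of 290, 547 and 201 in KO testis, against 525, 709 and 706 in WT testis. KO replicate 2 lay above WT replicate 1, and the difference of -1.02 (SE 0.36) was -0.61 within slide 1 and -1.82 within slide 2.

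The KO mice that were high or low differed from gene to gene, while 1 WT mouse was the highest for most genes. KO replicate 2 was the lowest KO array for Lrg1, Saa3, Il6st and Osmr and the highest for Hp, Cp, Stat3 and Socs3, 4 genes each. WT replicate 2 was the highest WT array for 8 of the 10 genes, all but Hp and Lifr. The 8 include Lcn2, whose probe was saturated. WT replicate 2 was the only WT array on slide 2, so mouse and slide cannot be told apart here. Over the 6 arrays, Pearson's r with Lrg1 on the log2 scale was 0.949 for Osmr, 0.929 for Cp, 0.927 for Lifr, 0.916 for Il6st, 0.884 for Saa3, 0.805 for Stat3, 0.555 for Socs3 and 0.023 for Hp. No value is given for Lcn2, whose probe was saturated. These values describe 6 arrays that share the KO to WT step, and no p is attached to them.

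**Figure D3:**
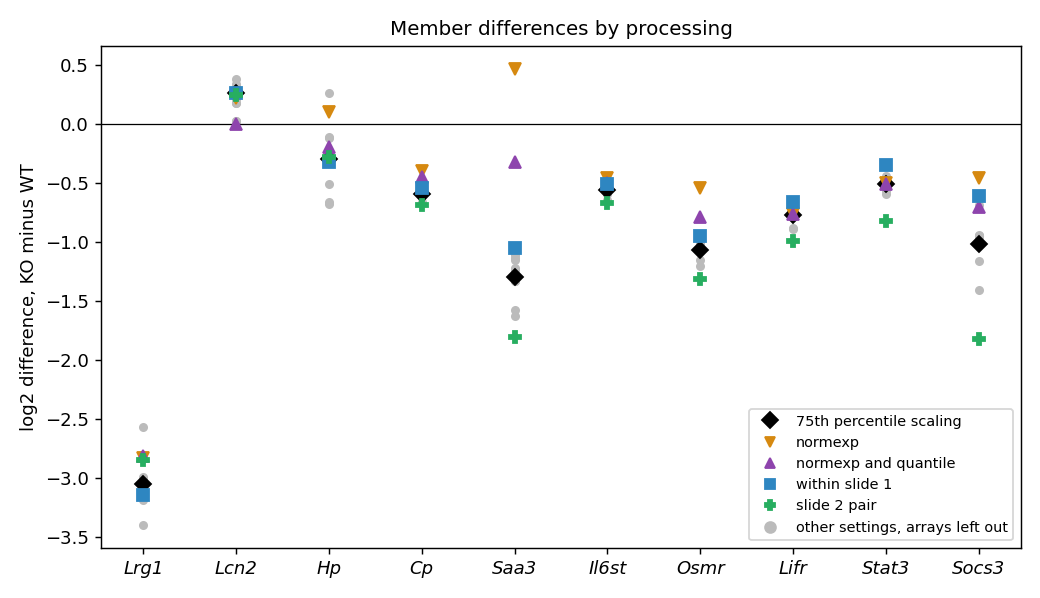
Log2 difference (KO minus WT) of each of the 10 genes under each processing alternative, in log2 units, with diamonds for the 75th percentile scaling used in the text, triangles for normexp, squares and crosses for single slides and grey circles for the other settings. Lrg1 stayed between -3.40 and -2.57, Hp and Saa3 crossed 0 under some settings, and the other genes apart from Lcn2 stayed below 0.

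The rest of the pathway was read from 9 lists grouped by role, with 140 genes, 139 of them on the array and 122 tested. In KO testis 21 of the 122 fell and 0 rose (limma, adjusted p under 0.05), which is 17.2% lower, against 3.55% of all genes. Unadjusted p-values under 0.05 (limma) were reached by 43 lower and 10 higher genes, against 2304 lower and 2040 higher of all 16953 genes. The unadjusted counts of each list below stand beside those same counts over all genes. The median difference of the 122 was -0.15, against 0.05 for all genes. The lists were drawn up with earlier results of these data known, so their counts are not independent of them. All 21 genes were lower both within slide 1 and within slide 2. The slides hold the same arrays that gave the 21 calls. Lower means on both slides therefore largely follow from those calls and are no separate check of them. With the slide as a block 11 pathway genes passed, and with the replicate number as a block 2. With normexp 0 pathway genes passed by limma, 14 were lower with unadjusted p under 0.05, 19 of the 21 differences stayed below 0, and that of Serpina3n was -1.52. Of the 21, 7 passed again whichever single mouse was left out (Serpina3n, C3, Itih3, Stat6, Timp1, Nfkb2 and Il17ra), and 14 did not pass without at least 1 mouse. Without KO replicate 2 or WT replicate 2, 7 of the 21 passed, without KO replicate 3 8, without WT replicate 3 9, without KO replicate 1 13 and without WT replicate 1 14.

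Of the acute phase proteins 4 of 28 fell and 0 rose, with unadjusted p under 0.05 for 7 lower and 2 higher genes. The median was 0.09, and it was 0.44 with normexp, which moved the median of all probes to 0.22, a shift of 0.16. Serpina3n, a serine protease inhibitor, had scaled signals of 85.7, 66.4 and 76.2 in KO testis, against 766, 629 and 527 in WT testis, a log2 difference of -3.06 (SE 0.16, adjusted p = 0.00276, limma). C3, the central complement protein, had 3319, 2485 and 2598 in KO testis, against 10301, 11050 and 9037 in WT testis, 3.63-fold lower (adjusted p = 0.00418, limma). Itih3, an inter-alpha-trypsin inhibitor heavy chain that binds hyaluronan, fell by 1.52 on the log2 scale (SE 0.11, adjusted p = 0.00368, limma). The groups of all 3 genes were widely separate. The fourth, Cd14, a bacterial lipopolysaccharide co-receptor that is also a macrophage marker, fell by 0.72 (adjusted p = 0.0100, limma). The other 24, among them the liver-type serum amyloid A, fibrinogen and orosomucoid genes, did not pass. Mt1 and Mt2, also among the 24, were saturated on 3 of 3 KO and 3 of 3 WT arrays, so they do not measure a difference.

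Of the negative acute phase proteins 0 of 5 tested passed by limma, with unadjusted p under 0.05 for 3 lower and 0 higher genes. Ahsg, fetuin A, which inhibits mineral deposition, came nearest, with 171, 126 and 135 in KO testis, against 346, 326 and 212 in WT testis (difference -1.01, SE 0.22, adjusted p = 0.0686, limma).

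The ligands did not pass in either direction. Of the 10 tested IL-6 family ligands 0 were called by limma, with unadjusted p under 0.05 for 0 lower and 2 higher genes and a median of 0.07. Ctf2, cardiotrophin 2, came nearest (difference 0.29, SE 0.09, adjusted p = 0.134, limma). Il6 itself was well above background on 0 of 3 KO and 0 of 3 WT arrays and was not tested. Of the other gp130-type receptors 1 of 6 fell. It was Il6ra, the interleukin-6 binding subunit, with 765, 787 and 753 in KO testis, against 1057, 1356 and 1110 in WT testis (difference -0.60, SE 0.11, adjusted p = 0.047, limma). Il6ra passed in 0 of the 6 fits that left out a mouse. Csf3r, which did not pass, was saturated on 1 of 3 KO and 2 of 3 WT arrays.

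Of the Janus kinases and other STATs 2 of 10 fell and 0 rose. Jak3 was saturated on 2 of 3 KO and 3 of 3 WT arrays, and Stat4 on 2 of 3 KO and 2 of 3 WT arrays. Neither measures a difference. Stat6, the factor of interleukin-4 and interleukin-13 signalling, had 440, 406 and 407 in KO testis, against 783, 791 and 800 in WT testis, 1.9-fold lower (adjusted p = 0.00443, limma). Jak2, a kinase bound to gp130-type receptors, fell by 0.45 (SE 0.08, adjusted p = 0.0445, limma) and passed in 0 of the 6 fits that left out a mouse. Of the SOCS, PIAS and phosphatase genes, which restrain the pathway, 0 of 14 passed by limma, with unadjusted p under 0.05 for 2 lower and 2 higher genes. Pias2, among the higher ones, was saturated on 2 of 3 KO and 3 of 3 WT arrays, so it does not measure a difference. Ptpn11, a phosphatase that binds gp130, came nearest (difference -0.38, SE 0.09, adjusted p = 0.0829, limma).

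Of the STAT3 target genes 3 of 22 fell and 0 rose, with unadjusted p under 0.05 for 8 lower and 3 higher genes and a median of -0.24, which was 0.13 with normexp. Timp1, an inhibitor of metalloproteinases, had scaled signals of 422, 313 and 357 in KO testis, against 5536, 4775 and 5455 in WT testis, 14.5-fold lower (log2 difference -3.86, SE 0.13, adjusted p = 0.000856, limma). Cebpd, a C/EBP factor of the acute phase, fell by 0.80 (SE 0.13, adjusted p = 0.0329, limma). Tnfrsf1a, a tumour necrosis factor receptor, fell by 0.55 (SE 0.09, adjusted p = 0.0381, limma) and passed in 0 of the 6 fits that left out a mouse. Bcl2l1, among the genes higher at an unadjusted p under 0.05, was saturated on 1 of 3 WT arrays.

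The NF-kB and interleukin-1 genes had the lowest median of the 9 lists, -0.52, which was 0.16 with normexp. Of them 6 of 16 fell and 0 rose, with unadjusted p under 0.05 for 11 lower and 0 higher genes. Nfkb2, an NF-kB subunit of the noncanonical pathway, had 427, 426 and 397 in KO testis, against 893, 877 and 996 in WT testis (difference -1.14, SE 0.08, adjusted p = 0.00368, limma). Il17ra, an interleukin-17 receptor, had 102, 92.2 and 105 in KO testis, against 209, 206 and 248 in WT testis (difference -1.14, SE 0.10, adjusted p = 0.00775, limma), and its difference was 0.16 with normexp background correction. Il1r1, the interleukin-1 receptor, fell by 1.14 (SE 0.11, adjusted p = 0.0102, limma). The other NF-kB genes that fell were the receptor gene Tnfrsf1b (difference -1.19, and 0.28 with normexp), the subunit gene Relb (-0.76) and the chemokine gene Cxcl1 (-2.06, and -0.36 with normexp).

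The partners of the acute phase products include the receptors and iron proteins they act with, and 5 of 11 fell and 0 rose. Unadjusted p was under 0.05 for 7 lower genes and 1 higher gene, and the median was -0.44, or -0.06 with normexp. Tgfbr2, a TGF-beta receptor, had 829, 834 and 904 in KO testis, against 1348, 1552 and 1559 in WT testis (difference -0.79, SE 0.09, adjusted p = 0.0138, limma). Heph, hephaestin, a ferroxidase related to ceruloplasmin, fell by 0.60 (SE 0.09, adjusted p = 0.0304, limma), and its difference was -0.04 with normexp. Tgfb1, a TGF-beta ligand, fell by 0.44 (SE 0.08, adjusted p = 0.04, limma) and passed in 0 of the 6 fits that left out a mouse. Slc40a1, the iron exporter ferroportin (difference -0.61), and Slc22a17, a lipocalin 2 receptor (difference -0.57), also fell, and Slc22a17 passed in 0 of the 6 fits that left out a mouse.

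**Figure D4:**
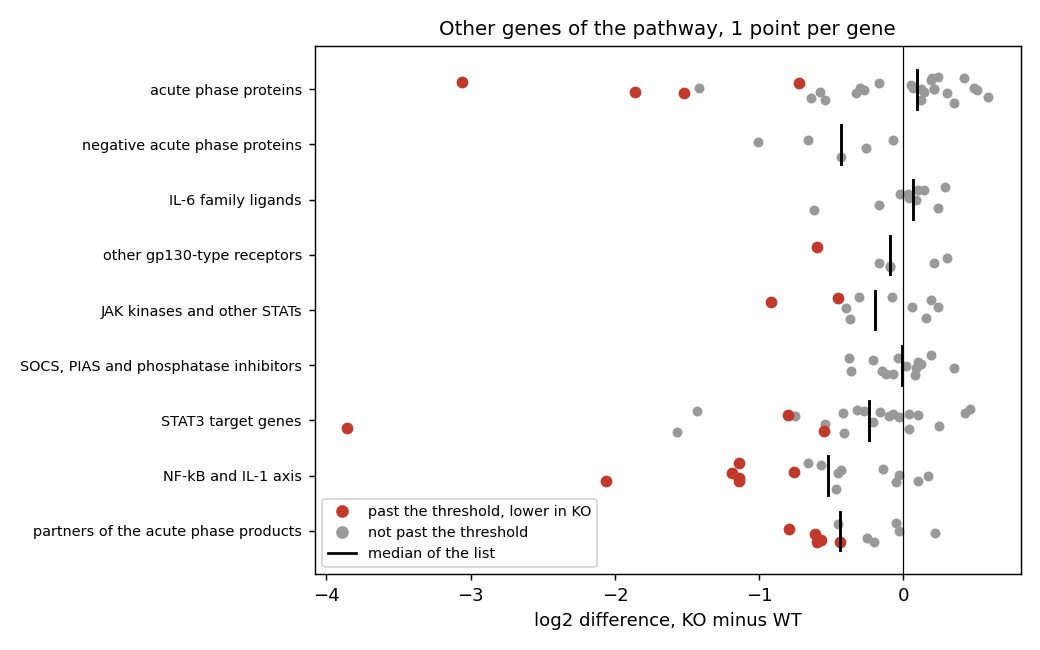
Log2 difference (KO minus WT) of the tested genes of the 9 pathway lists, one row a list and one point a gene, in log2 units. Red points passed the threshold, all 21 of them below 0, and the tick in each row is the list median, lowest for the NF-kB and IL-1 axis at -0.52.

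The genes whose pattern over the 6 arrays was most like that of Lrg1 were found by the root mean squared difference of log2 signals centred on each gene's mean over the 6 arrays. They were Serpina3n (0.42), Mpzl2 (0.51), Wnt4 (0.55), 4930486L24Rik (0.55), Timp1 (0.57) and Wfdc18 (0.57). Mpzl2, an adhesion protein of epithelia, had 140, 93.1 and 91.4 in KO testis, against 921, 992 and 1536 in WT testis. Wnt4, a secreted signal of gonad development, had 22.4, 20.8 and 16.2 in KO testis, against 153, 194 and 195 in WT testis, and was well above background on 1 of 3 KO arrays. Its difference of -3.20 was -0.39 with normexp. 4930486L24Rik had 516, 516 and 470 in KO testis, against 3350, 3541 and 4582 in WT testis. Wfdc18, a whey acidic protein domain gene, had 70, 33 and 20.6 in KO testis, against 281, 272 and 276 in WT testis, and was well above background on 2 of 3 KO arrays. In all of these genes the KO mice lay below the WT mice. This largely follows from the choice by likeness, since the pattern of Lrg1 holds its KO to WT step. KO replicate 2, the lowest KO array for Lrg1, was not the lowest KO array for Mpzl2, Wnt4, 4930486L24Rik or Wfdc18.

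**Figure D5:**
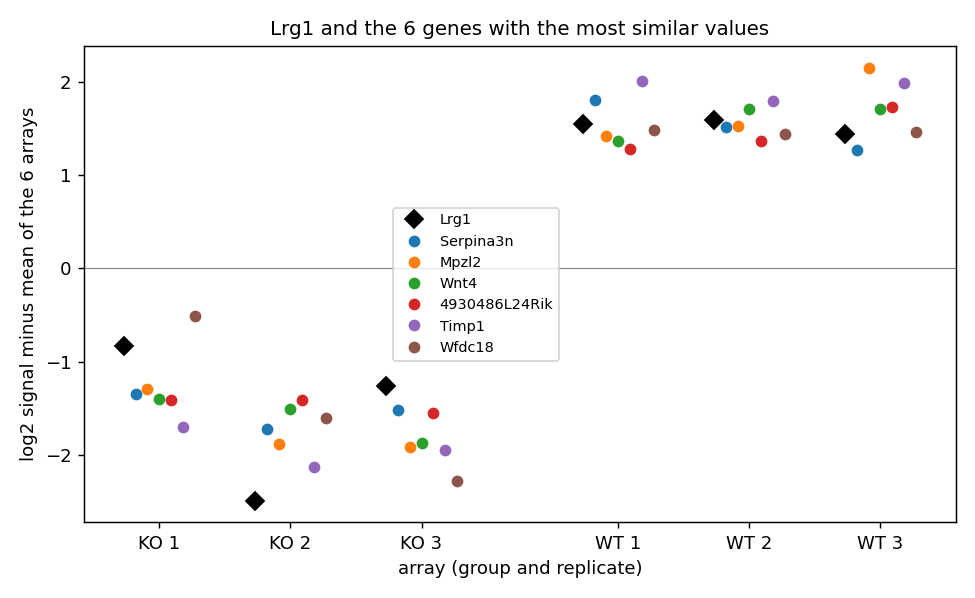
Log2 signal minus the gene's mean over the 6 arrays, for Lrg1 (diamonds) and the 6 genes most like it (circles), one column an array, KO left of WT. All 7 genes lie below 0 on the KO arrays and above 0 on the WT arrays, and Lrg1 is lowest on KO replicate 2. The shared step largely follows from the choice by likeness to Lrg1.

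The marker lists of the cells that whole testis can hold moved by different amounts. All 9 germ cell markers were well above background on all 6 arrays, as were all 10 Sertoli cell markers. Neutrophils make Lrg1 and Lcn2, and of their markers 4 of 11 on the array were tested and 0 passed by limma, with 0 at an unadjusted p under 0.05 and summed signals of 8900 to 10222 in KO and 9175 to 17551 in WT testis. Most of that sum came from Elane, with 6101, 7377 and 7018 in KO testis, against 6752, 9168 and 14794 in WT testis, the last in WT replicate 3. S100a8, S100a9, Ltf, Mmp8, Cxcr2 and Retnlg were well above background on 0 of 3 KO and 0 of 3 WT arrays. Of the macrophage markers 3 of 10 tested fell (Cd14 by 0.72, C1qc by 0.72 and Cd74 by 1.11). Unadjusted p was under 0.05 for 6 lower and 0 higher macrophage markers, and their median difference was -0.38. Their summed signals were 56456 to 62023 in KO and 62570 to 70976 in WT testis, most of it from Itgam, whose difference was 0.01. Of the Sertoli cell markers 1 of 10 fell, Sox9 (difference -0.64, adjusted p = 0.0186, limma). Unadjusted p was under 0.05 for 7 lower and 0 higher Sertoli cell markers, and their median difference was -0.32. Their sums were 162874 to 179005 in KO and 181885 to 190419 in WT testis, with the largest part from Amhr2, which was saturated on 2 of 3 KO and 2 of 3 WT arrays and ran the other way (difference 0.26). Germ cell markers did not pass (0 of 9 by limma, with unadjusted p under 0.05 for 0 lower and 3 higher genes), with sums of 408052 to 498506 in KO and 368274 to 411850 in WT testis. Most of that sum came from Ddx4, Tnp1, Prm1, Prm2 and Ldhc, each saturated on 2 or 3 arrays of each group, so it does not measure a difference.

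Hepatocyte markers Alb, Apoa1 and Apob were likewise well above background on no array, and 0 of the 4 tested passed, with 1 lower at an unadjusted p under 0.05 by limma. Of the epididymis and efferent duct markers 1 of 3 tested fell, Spink8 (difference -1.11, adjusted p = 0.0205, limma), with sums of 547 to 689 in KO and 1043 to 1350 in WT testis, while Lcn5, Lcn8, Lcn9 and Rnase9 were well above background on none. Of the Leydig cell markers 1 of 7 fell, Hsd3b1 (difference -0.76, adjusted p = 0.0368, limma), with unadjusted p under 0.05 for 1 lower and 1 higher gene. Of the fits that left out 1 of the 6 mice, Hsd3b1, Sox9 and C1qc passed in 1 each, Spink8 in 2 and Cd74 and Cd14 in 4 each. With the slide as a block Hsd3b1 (adjusted p = 0.0788, limma) and Spink8 (adjusted p = 0.0571, limma) did not pass. Of the endothelial markers 0 of 8 passed (unadjusted p under 0.05 for 1 lower and 1 higher), of the peritubular myoid markers 0 of 5 (0 lower and 1 higher) and of the erythroid markers 0 of 4 (2 lower and 0 higher), all by limma. Whether macrophages, Sertoli cells or epididymal cells changed in number was not tested. Nor was any part of theirs in the lower Lrg1, Cp and receptor signals of KO testis.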

How the data were processed

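RNA of whole testis was measured on Agilent 1-colour arrays, 1 array a mouse, and the array number limits the precision. Per the labels' protocols RNA came from TRIzol extraction and a low-input Cy3 labelling kit. A further label field names biotin, and the scanner files hold 1 green channel. The authors deposited linear spot intensity from Feature Extraction 10.7.3.1, per the file headers, on a design of build mm9, and a table of probe intensity of unstated normalization; limma is named in the submitters' processing notes. Group labels of the 2 file kinds oppose each other, and their replicate numbers differ.

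Control spots were left out, outlier spots (163 to 280 an array) set to missing and spots of a probe averaged. Log2 processed signals, minus each array's 75th percentile, were fitted with limma 3.58.1 in R 4.3.3. Probes well above background on at least 3 of 6 arrays, with at least 2 values a group, were tested (31800), with Benjamini-Hochberg adjustment over them. Well above background is the software's own flag. Each gene was read by its brightest probe with values on all 6 arrays. Gene symbols were assigned by matching the transcript identifier of each probe to RefSeq, and 13374 of 39429 probes had no symbol. No mean signal column is present, so normexp with offset 50 was run on the median signal and its local background median, not on the mean signal. The fit was also run on simulated data with independent noise for each probe and no slide effect. That run does not give the error rate of the calls made here. The 10 genes (members) and the lists were chosen with earlier results of these data known. Named genes are all member probes, Trp73, up to 3 lowest-p genes per pathway list and the 6 most like Lrg1. Marker genes were named where 3 or fewer passed, or where they were not above background. Other named genes fall outside that rule and were named after their values were seen. They are Cd14 as an acute phase gene, Tnfrsf1b, Relb, Cxcl1, Slc40a1, Slc22a17 and Il6. Further ones are Mt1, Mt2, Csf3r, Jak3, Stat4, Pias2 and Bcl2l1, named for saturation. The last are Elane, Itgam, Amhr2, Ddx4, Tnp1, Prm1, Prm2 and Ldhc, named for their part in a marker sum. The labels do not tie same-numbered KO and WT mice together, and p-values measure the spread between the 3 mice of a group. The motif search used the RefSeq promoters of GRCm38.p6.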

Additional observations from a re-analysis of the deposited data

How the results depend on the processing

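The Lrg1 difference stayed between -3.40 and -2.57 under every alternative run. Other results that were below 0 in the main fit were above 0 with normexp. Among them were the differences of Saa3 (0.47), Hp (0.10), Il17ra (0.16) and Tnfrsf1b (0.28). The medians of the STAT3 target list (0.13) and the NF-kB list (0.16) were among them too. Counts of calls were also less stable than the Lrg1 difference. Against 842 lower and 81 higher probes, 4 lower genes of the 10 described (members) and 21 lower pathway genes by limma, normexp gave 0 lower and 0 higher probes (810 and 1075 at an unadjusted p under 0.05), 0 members (4 unadjusted) and 0 pathway genes (14 unadjusted). Normexp with quantile normalization gave 405 lower probes, 0 members (8 unadjusted) and 9 pathway genes. Testing all probes gave 349 lower and 13 higher probes, 1 member and 12 pathway genes. The slide as a block gave 301 lower and 15 higher probes, 0 members (8 unadjusted) and 11 pathway genes. Slide 1 alone, with 2 mice a group, gave 0 lower and 0 higher probes (1814 and 1337 unadjusted), 0 members (6 unadjusted) and 0 pathway genes (29 unadjusted). Higher probes numbered 221 with quantile normalization, 143 with median scaling, 168 for probes well above background on all arrays and 217 in the authors' value table. Pathway genes that were higher numbered 1 with quantile normalization and 1 in the value table.

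Leaving out 1 mouse at a time gave 117 to 426 lower and 7 to 28 higher probes, 0 to 2 members and 7 to 16 pathway genes, with fewer samples in each fit. Same-numbered KO and WT arrays, by the numbers of the scanner files, did not deviate together over all probes (correlations of -0.025, -0.082 and -0.09). The labels state no pairing, and correlations of this kind cannot exclude one. A replicate block gave 9 lower and 1 higher probes, 0 members (8 unadjusted) and 2 pathway genes. Normexp moved Saa3 to 0.47, Cp to -0.40, Osmr to -0.54 and Socs3 to -0.46, while the median of all probes was 0.22 with it and 0.06 without it, and the cause was not tested. The array number and the dim signals of Saa3, and the saturated signals of Lcn2, limit what these values show.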
